A study of Mus musculus with 19 samples.

Results

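The replication-dependent histone genes encode the histones H1, H2A, H2B, H3 and H4 that package newly copied DNA. They were taken here as the protein-coding genes whose GENCODE M21 symbol begins with Hist1h, Hist2h, Hist3h or Hist4h, which gave 67 of the 52143 genes in the count table. Of these, 54 lie on chromosome 13, 10 on chromosome 3, 2 on chromosome 11 and 1 on chromosome 6. By class they comprise 6 H1, 18 H2A, 18 H2B, 12 H3 and 13 H4 genes. A further 3 genes of these names are annotated as pseudogenes and were left out.

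The RNA came from mouse induced pluripotent stem cells (iPSC), made from fibroblasts of embryos at day 14.5 with the STEMCCA lentivirus, which carries Oct4, Sox2, Klf4 and cMyc. Their parents were db/+ mice, with 1 mutant copy of the leptin receptor gene. Control cells without the mutation gave 7 libraries of 4 lines (aB6_A5, aB6_B1, bB6_A5 and bB6_B1). Homozygous db/db cells gave 8 libraries of 4 lines (adb_db5, adb_db7, bdb_db5 and bdb_db7), and db/db cells whose mutation was corrected with CRISPR-Cas9 gave 4 libraries of 2 lines (db_c_1 and db_c_2). All lines carry the reprogramming virus. Whether lines with a shared name, such as adb_db7 and bdb_db7, are independent is not given by the labels. The labels do not name the parent of the corrected lines. Nor do they tie the libraries of a line to separate cultures, so the line is the replicate here. A p-value then covers only how these lines vary, which may be technical. The groups ask what differs with the receptor mutation and after its correction, in a study whose title names leptin receptor signalling and the differentiation of neurons.

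Replication-dependent histone genes are transcribed mainly while DNA is copied. Most of their messenger RNAs end in a short stem-loop instead of a poly(A) tail. The stem-loop is bound by the protein encoded by Slbp, which takes part in processing, export and translation of the message. The libraries were made with a kit that selects poly(A) RNA, so a level measured here is that of histone transcripts that entered such a library. It is not the total amount of histone messenger RNA in the cells. A lower share of cells copying DNA and less RNA per cell cannot be told apart in bulk samples.

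The stem-loop was searched in the first 100 bases after the stop codon of the GENCODE transcripts, because it is the feature that sets this class of message apart. It was found in 46 of 67 histone genes, starting 22 to 59 bases after the stop codon (median 32). Among all 21901 protein-coding genes searched, 48 held it (0.219%), and the other two were H2afx and H2bfm, which also encode histones. Of the histone genes without a match, 15 have at most a few annotated bases after the stop codon, so the absence says nothing about the message. The 8 forms are printed 5′ to 3′ as DNA, with the 6 bases of each arm in capitals and the 4 bases of the loop in lower case; in each form the arms pair at every base.
Form of 26 genes of classes H1, H2A, H2B and H3: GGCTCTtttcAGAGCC
Form of 7 H4 genes, among them Hist1h4m and Hist4h4: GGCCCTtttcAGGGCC
Form of 6 genes of classes H1, H2B and H3, among them Hist1h3e: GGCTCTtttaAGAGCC
Form of Hist1h4i and Hist2h4: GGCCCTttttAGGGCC
Form of Hist1h4b and Hist1h4j: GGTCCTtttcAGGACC
Form of Hist1h4a: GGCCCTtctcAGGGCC
Form of Hist1h3g: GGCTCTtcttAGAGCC
Form of Hist2h2ac: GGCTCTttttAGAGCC
The arms thus differ between H4 genes and the other classes, while the loop varies within both.

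Some annotated histone transcripts run past the stem-loop. A poly(A) signal (AATAAA or ATTAAA) lies in the last 50 bases of the transcript of 16 histone genes, of which 13 also hold the stem-loop. In 5 genes at least 1 annotated transcript is spliced. Copies within the family are close: 41 of 67 genes have fewer than 50% of their 31-base words unique to them among the transcripts, 5 have none that is unique, and 24 overlap another annotated gene. Estimated counts of such genes depend on how reads were divided between copies, so levels are also given as sums over classes and chromosomes.

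Promoters (250 bases before to 50 after the start, RefSeq, GRCm38.p6) matched 61 of the 67 genes. On either strand, CCAAT was present in 85.2% of them against 37.4% of all 32851 promoters, TATAAA in 57.4% against 13.6%, and AAACACA, known as the H1 box, in 14.8% against 7.2%. CCAAT was found in each promoter matched of classes H1, H2A, H2B and H3 and in 3 of 12 H4 promoters. The H1 box was found in 5 of 6 H1 promoters and in 4 of the others. A promoter of an H1 gene, an H4 gene and an H2A gene that the results below turn on is shown, with each match to these 3 motifs in capitals. A match describes the letters only.
Hist1h1d, chr13:23554782-23555081, + strand: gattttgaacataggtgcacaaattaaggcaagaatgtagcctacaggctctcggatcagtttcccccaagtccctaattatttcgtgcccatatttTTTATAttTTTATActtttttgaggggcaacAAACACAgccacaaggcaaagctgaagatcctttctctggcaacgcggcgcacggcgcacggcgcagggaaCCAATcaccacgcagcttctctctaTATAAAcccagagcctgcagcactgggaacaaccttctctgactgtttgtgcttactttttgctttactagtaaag
Hist1h4i, chr13:22041313-22041612, - strand: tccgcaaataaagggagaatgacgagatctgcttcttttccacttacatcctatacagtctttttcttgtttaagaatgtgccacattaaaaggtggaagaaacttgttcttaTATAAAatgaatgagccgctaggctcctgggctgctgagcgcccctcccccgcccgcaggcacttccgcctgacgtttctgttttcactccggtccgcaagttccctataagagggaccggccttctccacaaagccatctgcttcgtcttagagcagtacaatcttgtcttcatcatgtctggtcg
Hist3h2a, chr11:58954435-58954734, + strand: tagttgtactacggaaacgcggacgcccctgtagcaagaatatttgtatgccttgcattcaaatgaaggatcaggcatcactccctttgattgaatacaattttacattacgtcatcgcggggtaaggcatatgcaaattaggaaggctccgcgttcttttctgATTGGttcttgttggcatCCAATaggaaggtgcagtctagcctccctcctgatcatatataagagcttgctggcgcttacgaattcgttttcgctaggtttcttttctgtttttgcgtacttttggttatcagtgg
Hist1h1d holds all 3 motifs, Hist1h4i holds TATAAA without CCAAT, and Hist3h2a holds CCAAT on both strands.

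Histone genes took a small share of every library. Libraries held 27333665 to 41203436 counts, of which histone genes made up 0.00212% to 0.0123%, or 728 to 3358 counts. Levels are CPM, counts relative to a fixed library total, scaled by TMM, which corrects library sizes for composition. The median over the 19 libraries was under 0.5 CPM for 58 of 67 histone genes, and 3 genes reached 1 CPM in every library. Between 6 and 54 of the 67 genes had fewer than 10 counts in a library. At such counts, differences of a single low gene between libraries are mostly not detectable.

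The level was carried by 5 genes, picked after their values were seen as those with the highest mean over lines. They are Hist1h2bc (an H2B gene, ENSMUSG00000018102, chromosome 13, 23684199 to 23692908), Hist1h1c (H1, chromosome 13, 23738808 to 23740367), Hist1h4i (H4, chromosome 13, 22040636 to 22041362), Hist3h2a (H2A, chromosome 11, 58954685 to 58956830) and Hist2h2be (H2B, chromosome 3, 96221119 to 96223738). Of these, 4 have a poly(A) signal at their annotated end. Hist1h2bc has none, and its transcript is spliced, with no stem-loop after the stop codon. These 5 genes held 41.7% to 64.1% of histone counts in 18 libraries. Per 1 kb of annotated exon, the order by median CPM was Hist1h2bc (7.28), Hist1h4i (5.72) and Hist1h1c (3.52), followed by the H2A gene Hist1h2af (1.92) and the H3 gene Hist1h3g (1.24). Where reads fall within a long annotation is not known from the table, and Hist1h1d (chromosome 13, 23553262 to 23560686) is annotated as a single exon of 7425 bases around a coding part of 663 bases.

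**Figure D1:**
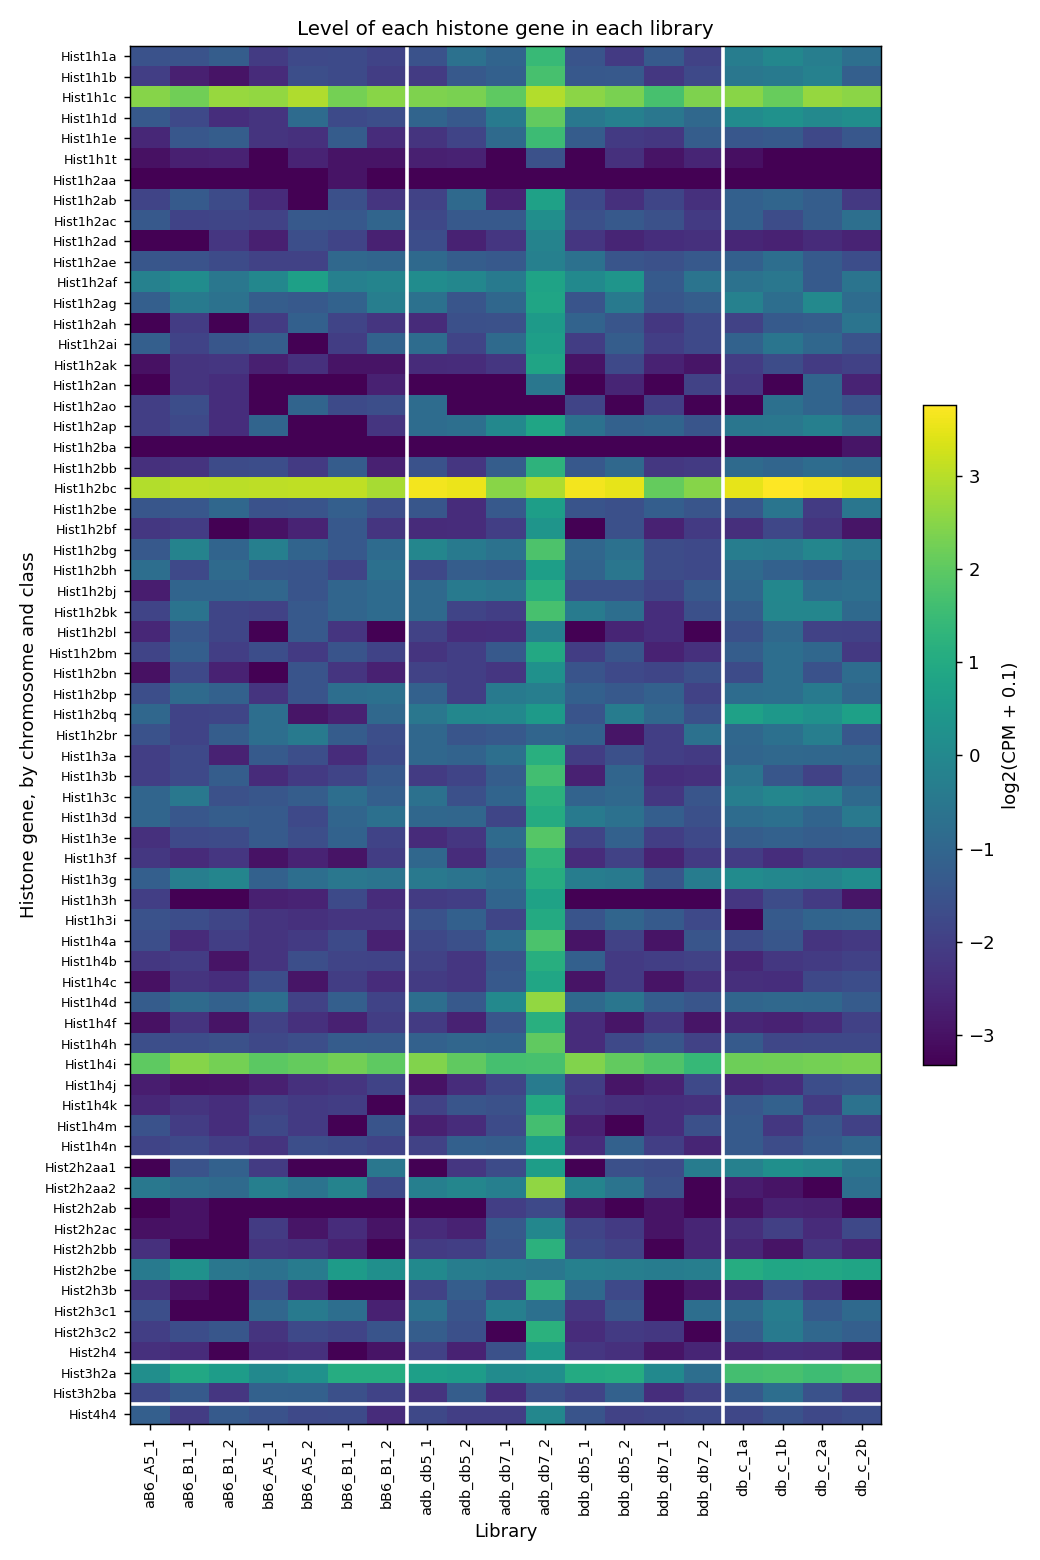
Level of each of the 67 histone genes (rows; white lines separate chromosomes 13, 3, 11 and 6) in each of the 19 libraries (columns; white lines separate control, db/db and corrected), as log2(CPM + 0.1). Hist1h2bc, Hist1h1c and Hist1h4i stand out as bright rows, and the second library of adb_db7 as a bright column in which 56 of 67 genes have their highest level.

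Because these RNAs mostly lack poly(A) tails, libraries of the same line were compared before groups. The second library of the db/db line adb_db7 stood apart. The summed level of the 62 other histone genes was 113 CPM there and 19.7 CPM in the first library of that line, against 9.56 to 16.7 CPM in the other db/db libraries, 11.4 to 13.8 CPM in control libraries and 20.5 to 24.5 CPM in corrected libraries. The summed level of the 5 abundant genes was 19.7 CPM in the second and 14.1 CPM in the first library of adb_db7. It lay within the range of the other libraries (12.4 to 28 CPM).

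**Figure D2:**
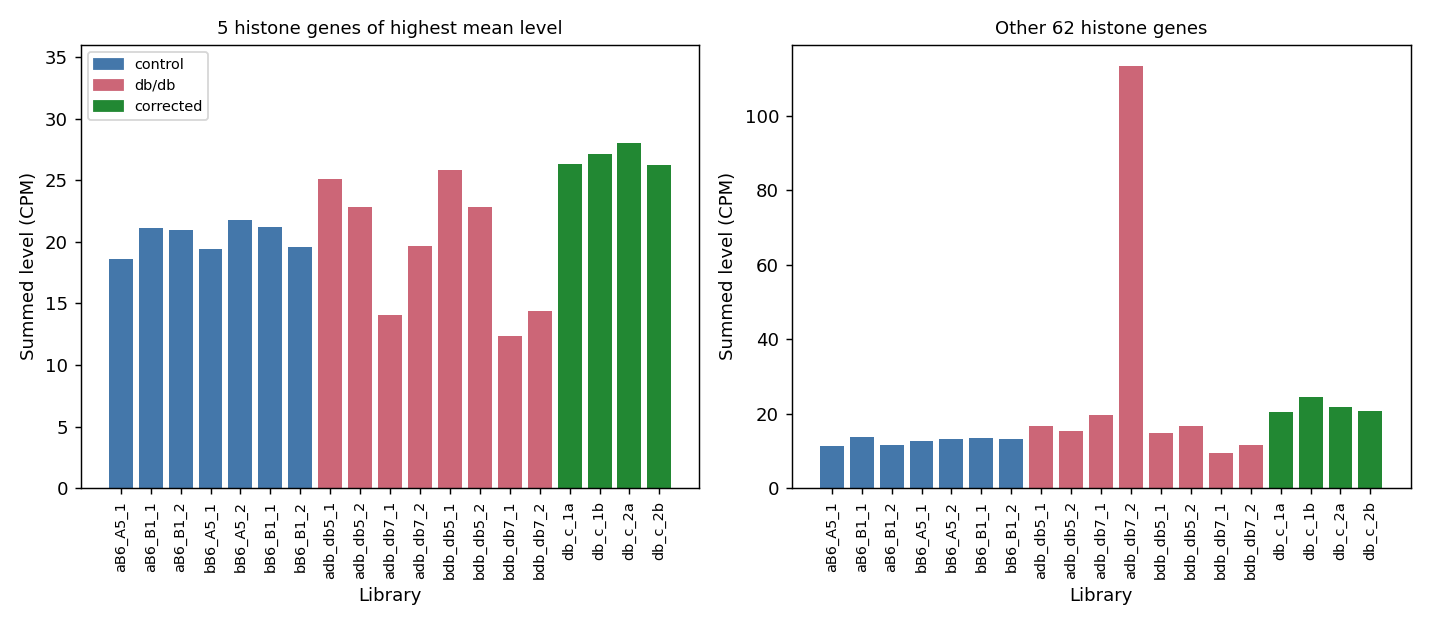
Summed level (CPM) of the 5 histone genes of highest mean (left) and of the other 62 (right) in each library, coloured by group. On the right the second library of adb_db7 reaches 113 CPM and the other 18 libraries 9.56 to 24.5 CPM, while on the left it lies at 19.7 CPM within the other libraries.

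The rise ran through each class and through the clusters on chromosomes 13 and 3. With a pseudocount of 0.1 CPM, 51 of 62 histone genes with at least 10 counts in the libraries of adb_db7 together were at least 2-fold higher in the second library, none was 2-fold lower, and the median ratio was 4.77. Of all 17474 genes with such counts, 2.35% were at least 2-fold higher. In the other 8 lines with a pair of libraries, 0 to 4 histone genes were 2-fold higher in the second library, and the median ratio was 0.916 to 1.15. Ratios of summed CPM carry exact 95% intervals that cover counting error only. For H4 genes other than Hist1h4i the ratio was 7.23 (upper bound 8.76, lower bound 6), for H1 genes other than Hist1h1c 7.05 (5.36 to 9.40), for H3 6.37 (5.30 to 7.71), for H2B 4.73 (3.98 to 5.64) and for H2A 4.62 (3.88 to 5.53). By chromosome, and again without the 5 abundant genes, it was 5.71 (5.21 to 6.27) on chromosome 13 and 6.09 (4.86 to 7.68) on chromosome 3. Hist4h4 on chromosome 6 had 22 counts in the second and 5 in the first library, a ratio of 5.92 with a lower bound of 2.19. Hist3h2ba, which is beside Hist3h2a on chromosome 11, had 6 and 3 counts (2.69, 0.574 to 16.6), so a difference there was not detectable at this depth.

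Single genes show how far these libraries differed. Hist1h1d, encoding a linker histone, had 4.04 CPM in the second library of adb_db7, 0.648 CPM in the first and 0.0895 to 1.09 CPM in the other 17. Hist2h2aa2 on chromosome 3, an H2A gene whose sequence is shared with Hist2h2aa1, had 5.90 CPM, 0.74 CPM and 0 to 0.85 CPM. Hist1h4m had 3.01 CPM, 0.21 CPM and 0 to 0.30 CPM. The level of each was higher in that library than in any other. The library also raised the means and differences by which these genes are named, so their choice is not independent of it. Of the abundant genes, 3 did not differ between these libraries beyond counting error: Hist1h4i had 3.13 CPM in the second and 3.06 CPM in the first library (ratio 1.02, 0.752 to 1.38), Hist3h2a 1.03 and 0.97 CPM (1.06, 0.608 to 1.83) and Hist2h2be 0.59 and 0.65 CPM (0.917, 0.442 to 1.85). The ratios of Hist1h2bc, 1.34 (1.09 to 1.65), and Hist1h1c, 1.94 (1.54 to 2.44), lay above counting error, and Hist1h1c also had its highest level in the second library (7.53 CPM, against at most 7.42 CPM in the other 18).

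The annotated ends of the genes went with this ratio. Of 48 histone genes without a poly(A) signal near the annotated end, 44 were at least 2-fold higher in the second library (median ratio 5.44), and of 14 genes with a signal, 7 were (median 2.04). Of 57 genes with only unspliced annotated transcripts 50 were 2-fold higher, and of 5 with a spliced transcript 1 was. By the stem-loop, 37 of 43 genes with it and 14 of 19 without a match were 2-fold higher. Most genes without a match have at most a few annotated bases after the stop codon. These counts therefore cannot show whether the stem-loop separated the genes. Genes with so short an annotated end also count as without a poly(A) signal, so the split by signal rests partly on the annotation. Among those with a longer annotated end, Hist1h1a (ratio 5.62) and Hist2h3b (9.09) were 2-fold higher. Hist1h2bq (1.47), Hist1h2br (1.26), Hist1h2bc (1.33) and Hist2h2be (0.928) were not. These are descriptions of a pair of libraries, and no test was made of the split.

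**Figure D3:**
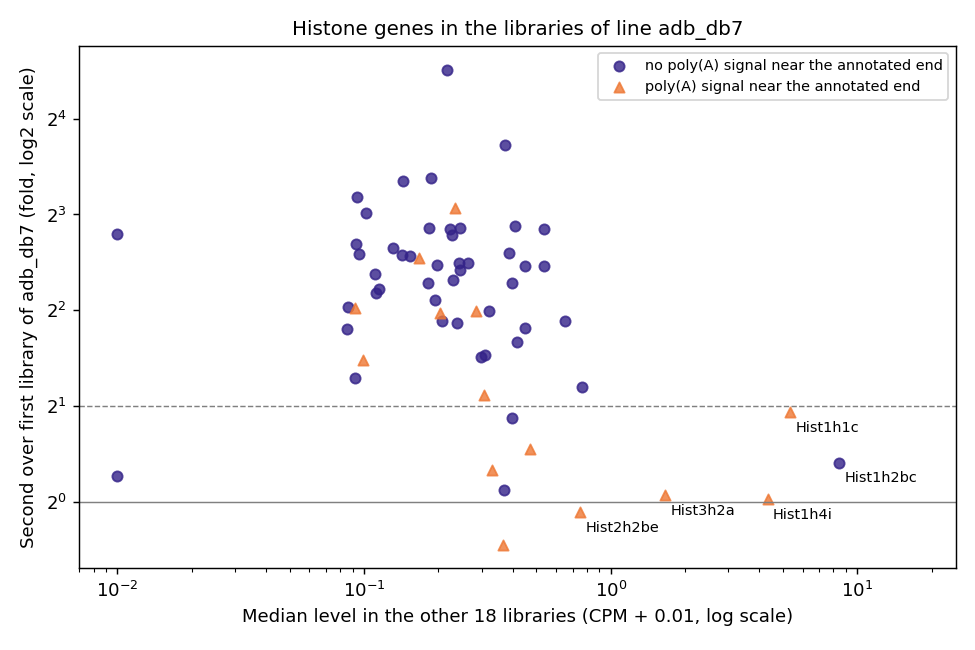
Level in the second over the first library of adb_db7 (vertical axis, fold on a log2 scale) against the median level in the other 18 libraries (horizontal axis, log scale) for the 62 histone genes with at least 10 counts; triangles have a poly(A) signal near the annotated end. Most circles lie above the dashed line at 2-fold, and the 5 named abundant genes lie below it. Circles include genes with at most a few annotated bases after the stop codon, where no signal could be found.

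RNAs without poly(A) tails moved the same way in these libraries. Of the 22 genes listed as such, 17 had their highest level in the second library of adb_db7, where they summed to 56402.5 CPM, against 6374.0 CPM in the first and 1232.6 to 2238.5 CPM in the control libraries. Rn7sk, the 7SK RNA that restrains transcription elongation, had 102.1 CPM, 11.6 CPM in the first library and 1.73 to 5.19 CPM in the other 17. Gm42418, which overlaps ribosomal RNA sequence, had 52092.5 CPM, 5334.4 CPM and 674.1 to 1515.9 CPM. S-phase genes, by contrast, summed to 5523.1 CPM in the second and 5824.3 CPM in the first library, and none of 28 had its highest level in the second. The part that the carry-over of RNA without poly(A) tails has in the histone levels was not tested. The counts of histone genes in each comparison of lines below are therefore given with and without this library.

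Second libraries were also compared with first ones across the lines with both duplicates, where most histone genes were too low to be tested. A fit of 14 libraries of 7 lines with the line as a block tested 22 of the 67 genes and called 1 of them (4.55%), against 11.7% of all 16061 genes tested. Hist1h1c, an H1 gene, rose in second libraries (log2 0.34 ± 0.11 SE, edgeR quasi-likelihood, adjusted p = 0.0497), and without line adb_db7 it had 0.24 ± 0.095 with an adjusted p of 0.138. Without that line 0 of 21 histone genes were called by edgeR, with 2 at an unadjusted p under 0.05, against 7.52% of all genes. Fibroblast markers moved with the duplicate number: 10 of 11 tested were higher in second libraries (median log2 0.83). Their part in the histone values was not tested.

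Between db/db and control lines 2 of 60 tested histone genes rose and none fell, which is 3.33% against 16.9% of all 19700 genes tested (7.41% higher). They are Hist1h1d, encoding a linker histone, and Hist1h2ap, encoding an H2A. Hist1h1d had 0.298, 0.144, 0.267 and 0.214 CPM in the control lines aB6_A5, aB6_B1, bB6_A5 and bB6_B1, and 0.340, 2.10, 0.680 and 0.516 CPM in the db/db lines adb_db5, adb_db7, bdb_db5 and bdb_db7. The lines of the groups did not overlap, with the highest value in adb_db7. For a called gene, here and below, such non-overlap rests on the same values as the call. The difference was log2 1.99 ± 0.55 (SE; edgeR adjusted p = 0.0360), and 1.25 ± 0.29 (adjusted p = 0.0185) without the second library of adb_db7. Hist1h2ap had 0.149, 0.144, 0.208 and 0.0570 CPM in the control lines and 0.481, 1.23, 0.448 and 0.328 CPM in the db/db lines, again without overlap. It rose by log2 2.15 ± 0.49 (adjusted p = 0.0169), and by 1.89 ± 0.40 (adjusted p = 0.0124) without that library. In Hist1h2ap 6.6% of the 31-base words are unique to the gene, and its coding sequence is the same as that of Hist1h2ao. Hist1h2ao had 0.149, 0.158, 0.178 and 0.214 CPM in the control lines and 0.241, 0, 0.0927 and 0.0782 CPM in the db/db lines. In the first and second library of bB6_A5, Hist1h2ap had 0.383 and 0 CPM, and Hist1h2ao 0 and 0.387 CPM. The division of reads between these copies is not known, and its part in the rise of Hist1h2ap was not tested.

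The median over the 60 tested genes was log2 0.99, against a median of -0.00 over all genes, and 52 of 60 estimates were above 0. Without the second library of adb_db7 the median was 0.16, with 39 of 58 estimates above 0 and the same 2 genes called, against 17.5% of all genes. By class, medians fell from 1.51 to 0.47 for H1, 0.85 to 0.12 for H2A, 0.70 to 0.04 for H2B, 1.37 to 0.24 for H3 and 1.41 to 0.36 for H4. By chromosome, they fell from 1.08 to 0.21 on chromosome 13 (49 and 47 genes) and from 0.93 to 0.34 on chromosome 3 (8 genes), beside a median of 0.25 over all genes of chromosome 3 in either fit. The 2 genes on chromosome 11 had medians of -0.26 and -0.29. The summed level of the 62 less abundant genes was 12.6 ± 0.809 CPM in control lines (SD, n = 4) and 25.5 ± 23.0 CPM in db/db lines (SD, n = 4), or 15.5 ± 3.80 CPM without that library. When lines of a shared name were summed into 1 unit, 0 of 63 histone genes were called by edgeR (19 at an unadjusted p under 0.05), against 0.161% of all genes, and 0 of 62 without that library (7 at an unadjusted p under 0.05), against 0.175%.

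**Figure D4:**
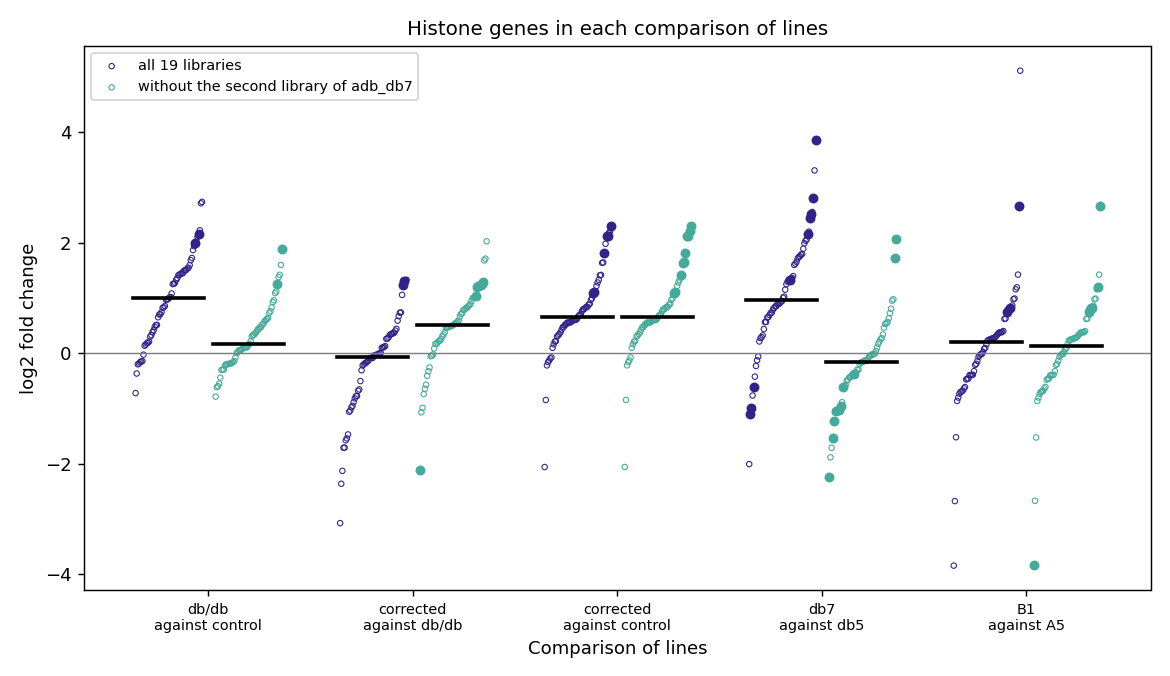
Log2 fold change of each tested histone gene in 5 comparisons of lines, ordered by size within each column, with all 19 libraries (dark) and without the second library of adb_db7 (light); filled points have an edgeR adjusted p under 0.05 and black bars are medians. The median moves from 0.99 to 0.16 for db/db against control, from -0.07 to 0.51 for corrected against db/db, from 0.97 to -0.16 for db7 against db5, and stays at 0.65 for corrected against control.

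The abundant genes showed no call between db/db and control lines. For Hist1h2bc and Hist1h4i the db/db lines themselves fell into 2 levels. Hist1h2bc had 7.62, 8.11, 8.35 and 7.74 CPM in the control lines, 12.02 and 11.8 CPM in the db5 lines, and 6.31 and 4.77 CPM in the db7 lines. Control lines lay between these levels, and the group difference was log2 0.13 ± 0.26 (adjusted p = 0.760). Hist1h4i had 3.90 to 5.13 CPM in control, 4.64 and 4.70 CPM in db5, and 3.09 and 3.02 CPM in db7 lines. Hist1h1c had 5.19 to 6.65 CPM in control and 4.08 to 5.45 CPM in db/db lines, which overlapped.

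Between lines of different name within db/db, 9 of 60 histone genes were called for db7 against db5 (15%, against 42.0% of all genes, 20.4% higher and 21.5% lower). Of these, 3 abundant genes fell. Hist1h2bc fell by 1.11 on the log2 scale (-1.11 ± 0.11, adjusted p = 1.34e-05), Hist3h2a by 0.99 (-0.99 ± 0.20, adjusted p = 0.00206) and Hist1h4i by 0.61 (-0.61 ± 0.10, adjusted p = 0.000734). Hist3h2a had 1.46 and 1.95 CPM in the db5 lines and 0.998 and 0.719 CPM in the db7 lines. Without the second library of adb_db7 these genes had -1.23, -1.05 and -0.62, each again called. The 6 genes that rose were Hist2h2aa1, Hist1h4m, Hist1h1e, Hist1h2be, Hist1h3e and Hist1h4a. Hist2h2aa1 had 0.057 and 0.108 CPM in the db5 lines and 0.727 and 0.438 CPM in the db7 lines adb_db7 and bdb_db7. Its copy Hist2h2aa2 had 0.793 and 0.696 CPM in the db5 lines and 2.94 and 0.125 CPM in the db7 lines. Without the second library, Hist2h2aa2 had 0.737 CPM in adb_db7. The division of reads between these copies is not known, so a rise of Hist2h2aa1 in db7 lines may rest on it.

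Of those rises, 4 were not called without the second library of adb_db7 (Hist1h1e, Hist1h2be, Hist1h3e and Hist1h4a). Hist1h3e had 1.81 CPM in adb_db7, 0.172 CPM in bdb_db7, and 0.099 and 0.263 CPM in the db5 lines. Hist1h4a, with 1.66, 0.141, 0.212 and 0.093 CPM in the same order, showed the same pattern. Without the second library of adb_db7, 10 of 58 genes were called (41.6% of all genes), 8 lower and 2 higher (Hist2h2aa1 with log2 2.06 ± 0.56 and Hist1h4m with 1.73 ± 0.56), and the median over histone genes went from 0.97 to -0.16. The genes called lower in that fit and not in the first were Hist1h1c, Hist1h2af, Hist1h2bk, Hist2h3c2 and Hist1h3d, named for their calls after values were seen. Without line bdb_db7, adb_db7 was the lone db7 line and still held its second library, so no calls are given for that fit. Of the chromosome 3 genes, 1 of 8 was called with all libraries, against 57.1% of all 932 genes tested on that chromosome. Their median was 1.16 beside 0.27 over those genes. Without the second library of adb_db7, 1 of 8 rose and 1 fell, against 54.1% of 931 genes called. The histone median on chromosome 3 was then -0.32 beside 0.26.

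Between the control lines of different name, 3 of 60 histone genes rose in B1 against A5 lines (5%, against 38.8% of all genes, 19.1% higher). Hist3h2a had 1.61 and 1.98 CPM in the B1 lines and 1.04 and 1.01 CPM in the A5 lines (log2 0.81 ± 0.20, adjusted p = 0.00656). Hist2h2be had 0.862 and 1.21 CPM against 0.645 and 0.594 CPM (0.75 ± 0.21, adjusted p = 0.0139). Hist2h2aa1 had 0.302 and 0.299 CPM against 0 and 0.074 CPM (2.66 ± 0.64, adjusted p = 0.00653), while its near-identical copy Hist2h2aa2 had 0.474 and 0.499 CPM against 0.620 and 0.653 CPM. Neither copy has a 31-base word of its own, so how reads were divided between them is not known. The count was 7 of 58, against 39.1% of all genes, without the second library of adb_db7, which enters the fit through the shared spread.

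Between corrected and control lines, 6 of 60 tested histone genes rose and none fell, which is 10% against 33.2% of all genes called (16.2% higher), and 53 of 60 estimates were above 0 (median log2 0.65, against -0.01 over all genes). The 6 genes were Hist1h2bq, Hist1h2bn and Hist2h2be (H2B), Hist1h2ap and Hist3h2a (H2A) and Hist1h1d (H1). Hist2h2be had 1.87 and 1.72 CPM in the corrected lines db_c_1 and db_c_2 and 0.594 to 1.21 CPM in the control lines (log2 1.10 ± 0.27, adjusted p = 0.0111). Hist3h2a had 3.05 and 2.97 CPM against 1.01 to 1.98 CPM (1.09 ± 0.37, adjusted p = 0.0474). Hist1h2bq had 1.42 and 1.28 CPM against 0.172 to 0.422 CPM (2.31 ± 0.44, adjusted p = 0.00347). In Hist1h2bq 1.7% of the 31-base words are unique, and it shares its coding sequence with Hist1h2br. Hist1h2br had 0.457 and 0.505 CPM in corrected and 0.244 to 0.564 CPM in control lines, which overlapped. The division of reads between these 2 genes is not known. In Hist2h2be, Hist3h2a and Hist1h2bq, each called on the same values, every corrected line lay above every control line.

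The other 3 had at most 1.02 CPM in control and corrected lines. Hist1h1d had 1.02 and 0.952 CPM in corrected and 0.144 to 0.298 CPM in control lines (2.11 ± 0.63, adjusted p = 0.0270). Hist1h2ap had 0.587 and 0.620 CPM against 0.0570 to 0.208 CPM (2.11 ± 0.56, adjusted p = 0.0167), and Hist1h2bn had 0.326 and 0.346 CPM against 0.025 to 0.129 CPM (1.81 ± 0.55, adjusted p = 0.0296). The copy of Hist1h2ap, Hist1h2ao, had 0.222 and 0.317 CPM in corrected and 0.149 to 0.214 CPM in control lines. Without the second library of adb_db7, 10 of 58 genes rose (33.1% of all genes were called), those 6 and Hist1h1a, Hist1h1b, Hist1h4k and Hist1h2bb. The H1 gene Hist1h1b had 0.613 and 0.563 CPM in corrected lines and 0.043 to 0.171 CPM in control lines (2.20 ± 0.42, adjusted p = 0.00375). Summed by shared name, 2 of 63 genes were called with all libraries, against 12.1% of all genes, and 7 of 62 without that library, against 11.6%. The calls of Hist2h2be and Hist3h2a were lost in that fit (adjusted p = 0.075 and 0.136), also without the library, and those of Hist1h1d and Hist1h2bn with all libraries (0.0529 and 0.0548).

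**Figure D5:**
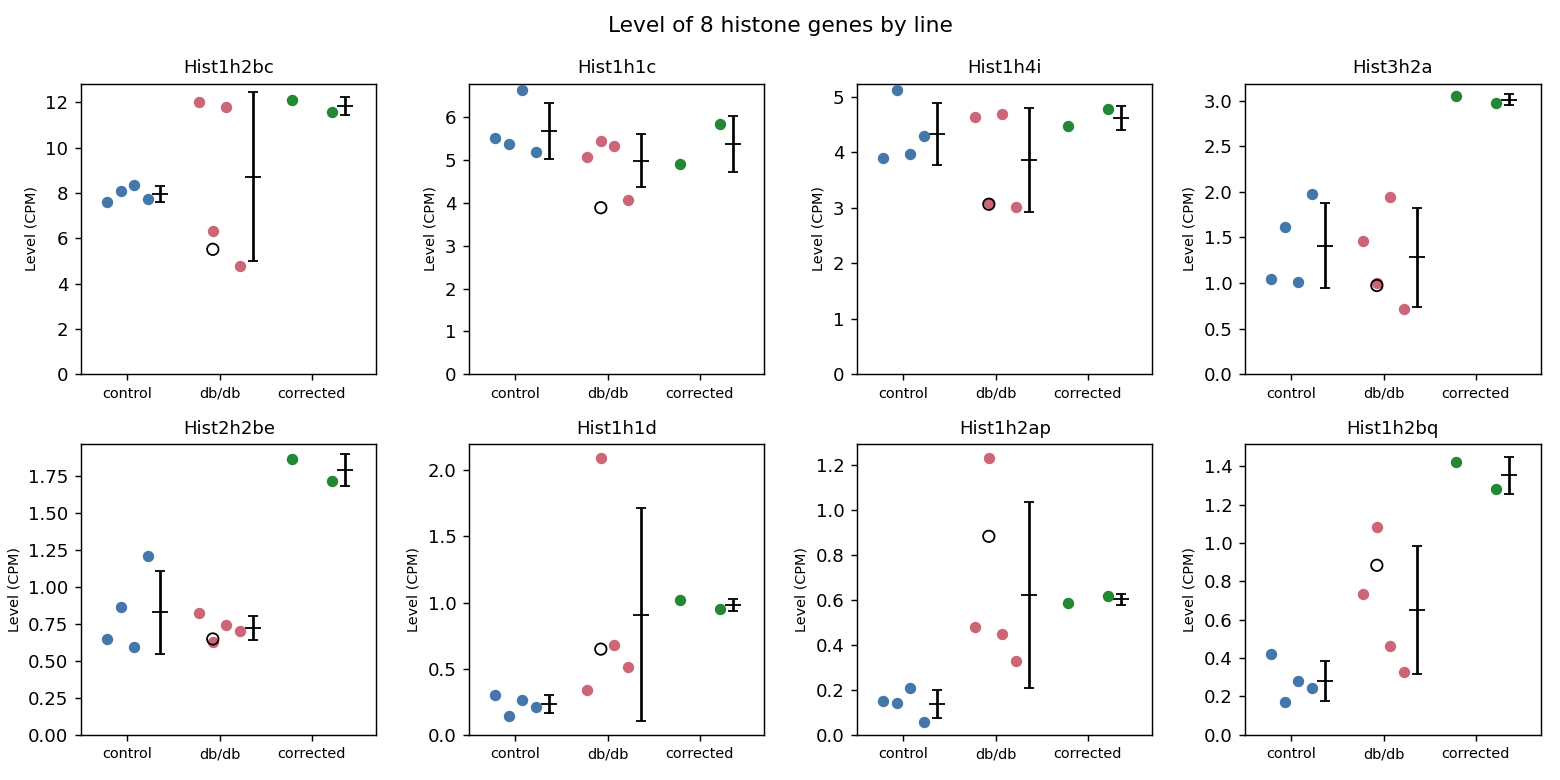
Level (CPM) of 8 histone genes in each line (points), with the mean and SD over lines beside them (n = 4, 4 and 2); the open circle is adb_db7 without its second library. Both corrected lines lie above every control and db/db line for Hist3h2a, Hist2h2be and Hist1h2bq, and the db5 and db7 lines lie apart for Hist1h2bc and Hist1h4i.

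Against db/db lines the corrected lines were higher in 2 of 60 genes (3.33%, against 36.7% of all genes, 18.7% higher). Hist2h2be had 0.821, 0.626, 0.742 and 0.704 CPM in the db/db lines, all below the corrected lines (log2 1.31 ± 0.27, adjusted p = 0.00437). Hist3h2a had 0.719 to 1.95 CPM in the db/db lines, also below them (1.23 ± 0.37, adjusted p = 0.0268). Neither gene was higher in the second library of adb_db7 than in the first beyond counting error. The values without it were 1.29 ± 0.26 and 1.23 ± 0.37. The comparisons with control and with db/db lines share the 2 corrected lines.

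Without the second library of adb_db7, 7 of 58 histone genes were called between corrected and db/db lines, 6 higher and 1 lower, against 36.7% of all genes, and the median went from -0.07 to 0.51. The genes added to Hist2h2be and Hist3h2a were Hist1h1a, Hist1h1b, Hist1h2bq and Hist1h3c among the higher ones, and Hist2h2aa2 was lower (-2.12 ± 0.75, adjusted p = 0.0488). Hist2h2aa2 had 0.039 and 0.231 CPM in corrected lines, where its copy Hist2h2aa1 had 0.887 and 0.750 CPM. Summed by shared name, 1 of 63 genes rose and 1 fell, against 15.5% of all genes, and 4 of 62 rose without that library, against 15.4%. In that fit Hist2h2be was called (1.29 ± 0.32, adjusted p = 0.0479), and Hist3h2a was not (1.23 ± 0.42, adjusted p = 0.0961), nor was it without the library. By class, medians over lines without that library were 0.87 for H1 (5 genes), 0.69 for H2B (16), 0.54 for H2A (14), 0.41 for H3 (12) and 0.19 for H4 (11).

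Sums over the genes place the groups as follows. The 62 less abundant genes summed to 20.97 and 22.02 CPM in the corrected lines and to 11.4 to 13.3 CPM in control lines, and the db/db lines without that library had 10.5 to 19.7 CPM. On chromosome 13 and without the abundant genes, the sums were 18.55 and 19.13 CPM in corrected, 9.58 to 11.6 CPM in control and 9.15 to 16.7 CPM in db/db lines without that library. On chromosome 3 the sums were 2.08 and 2.35 CPM, 1.11 to 1.83 CPM and 1.02 to 2.80 CPM, so that corrected lines lay within db/db lines there. The H4 genes without Hist1h4i summed to 2.30 and 2.50 CPM in corrected and 1.68 to 1.96 CPM in control lines, and the H1 genes without Hist1h1c to 2.53 ± 0.247 CPM (SD, n = 2) against 0.785 ± 0.0511 CPM (SD, n = 4).

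The sum of the RNAs without poly(A) tails was not higher in corrected libraries, at 1515.3 to 1943.7 CPM, against 1232.6 to 2238.5 CPM in control libraries. Gm42418 makes up a large part of such sums, so they say little about the other RNAs listed. Of 14 tested, 0 were called by edgeR between corrected and control lines with all libraries (median log2 -0.19), against 33.2% of all genes. Without the second library of adb_db7, 3 fell, against 33.1% of all genes called. The Rn7sk levels were 3.69 and 4.49 CPM in corrected and 2.18 to 4.27 CPM in control lines. The labels give no batch, so any difference in how corrected cells were handled and the correction itself cannot be told apart.

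Genes that process histone messages or place histones on DNA were read from lists, with all libraries. Without the second library of adb_db7 the counts of the lists named from here on, in the comparisons given, differed by at most 1 gene in each direction. Beside the counts of all these lists, 33.2% of all genes were called in corrected against control lines (16.2% higher). In corrected against db/db lines 36.7% were called (18.7% higher), and in db/db against control lines 16.9% (7.41% higher). Of 25 genes of histone message processing and regulation, 4 rose and 11 fell in corrected against control lines, and 4 rose and 13 fell against db/db lines. Slbp had 70.9 and 71.7 CPM in corrected, 87.1 to 99.2 CPM in control and 99.8 to 106.3 CPM in db/db lines. It fell by 0.39 against control (-0.39, adjusted p = 0.0024) and by 0.54 against db/db lines (-0.54, adjusted p = 0.00046). Coil, encoding the scaffold protein of Cajal bodies, had 195.3 and 202.2 CPM in corrected and 99.4 to 122.8 CPM in control lines, and rose (0.84, adjusted p = 0.0028). Npat, the activator of histone gene transcription, had 55.3 and 55.8 CPM against 53.1 to 57.2 CPM, and Casp8ap2 had 68.7 and 69.6 CPM against 62.5 to 73.1 CPM, neither of them called.

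Of 28 S-phase genes, 0 rose and 13 fell in corrected against control lines, and 0 rose and 18 fell against db/db lines. Of 21 histone chaperones and assembly factors, 2 rose and 8 fell against control, and 0 rose and 10 fell against db/db lines. Chaf1a, a subunit of the assembly factor CAF-1, fell by 0.54 (-0.54) and by 0.66 (-0.66). The part of such genes in the histone levels was not tested. Between db/db and control lines the counts were 1 higher and 0 lower of 28 S-phase genes, 1 and 1 of 25 processing genes, and 4 and 1 of 21 chaperones.

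Replication-independent histone genes have messages that carry poly(A) tails. Of 11 tested, 0 rose and 3 fell in corrected against control lines, and likewise against db/db lines. H2afz, encoding the variant H2A.Z, had 540.3 and 554.8 CPM in corrected, 809.4 to 1014.7 CPM in control and 1061.6 to 1566.1 CPM in db/db lines, without overlap of the groups. It fell by 0.74 against control (-0.74, adjusted p = 0.0082) and by 1.25 against db/db lines (-1.25, adjusted p = 0.00061), and rose in db/db against control lines (0.51, adjusted p = 0.027). H3f3b had 435.1 and 454.3 CPM in corrected and 560.4 to 758.2 CPM in control lines (-0.56, adjusted p = 0.0085), whereas H3f3a, which encodes the same protein, had 313.3 and 321.3 CPM against 301.3 to 311.8 CPM (0.05, not called). H1f0, encoding a linker histone of resting cells, had 43.8 CPM in both corrected lines and 45.5 to 60.9 CPM in control lines and was not called. H2afx, whose message can end in the stem-loop, fell in corrected against control lines (-0.53, adjusted p = 0.025).

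Cell type markers differed between the groups too. Pluripotent markers summed to 7006.2 CPM or more in every library, with 1 higher and 5 lower of 12 in corrected against control lines. Primitive endoderm markers were higher in 7 and lower in 1 of 12, with sums of 793.6 to 847.3 CPM in corrected and 592.2 to 698.6 CPM in control libraries. Fibroblast markers were lower in 9 of 13 in db/db against control lines and higher in 6 of 13 in corrected against db/db lines, and markers of the two-cell-like state were lower in 11 of 12 in db/db against control lines. The part of these markers in the histone values was not tested.

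Genes that led their class within a cluster were otherwise low. Hist1h2af, the most abundant H2A gene of chromosome 13, had 0.769 to 1.17 CPM in control, 0.422 to 1.07 CPM in db/db and 0.418 and 0.561 CPM in corrected lines. Hist1h3g, the leading H3 gene, had 0.348 to 0.776 CPM, 0.469 to 1.13 CPM, and 0.894 and 0.926 CPM. On chromosome 3, Hist2h3c1 had 0 to 0.520 CPM, 0.186 to 0.643 CPM, and 0.361 and 0.548 CPM, and Hist2h4 had 0.014 to 0.099 CPM, 0.047 to 0.676 CPM, and 0.058 and 0.078 CPM. On chromosome 11, Hist3h2ba had 0.198 to 0.356 CPM, 0.125 to 0.263 CPM, and 0.188 and 0.378 CPM. Hist4h4, the lone member of chromosome 6, had 0.142 to 0.348 CPM, 0.170 to 0.457 CPM, and 0.202 and 0.209 CPM. The groups overlapped for Hist2h3c1, Hist2h4, Hist3h2ba and Hist4h4, and for Hist1h3g between corrected and db/db lines. The testis genes Hist1h1t, Hist1h2aa and Hist1h2ba had at most 0.238 CPM in every library.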

How the data were processed

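RNA of 19 libraries was measured with a stranded kit that selects poly(A) RNA, per the labels' protocols. The authors deposited 1 table of estimated counts per Ensembl gene for all libraries, not scaled; kallisto and GRCm38 are named in the submitters' processing notes, while the version, index, strand setting and summing per gene are not stated there. Of the values, 79.7% are whole numbers. Totals ran from 27333665 to 41203436 counts per library, so genes under 10 counts carry wide counting error; intervals and ratios of counts cover counting error only.

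Genes were named by Ensembl identifier from GENCODE M21 (51250 of 52143 matched). Estimated counts were rounded and summed per line, which is the replicate, and tested with edgeR 4.0.16 (quasi-likelihood, TMM, its default filter on low counts, R 4.3.3), with Benjamini-Hochberg adjustment over all 19700 genes tested and a threshold of 0.05. Each p-value named adjusted in the text comes from this fit over 10 lines unless another is named. Group comparisons used 1 fit with 3 groups. The comparisons of db7 with db5 and of B1 with A5 used the same lines in 5 groups. Duplicates were compared in 14 libraries of 7 lines with the line as a block. Script outputs used Python 3.11.15, pandas 2.3.3, scipy 1.17.1 and matplotlib 3.10.9.

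Alternatives were other scalings (DESeq2 size factors, upper quartile, library size), filters (none, at least 1 CPM in 2 samples), DESeq2 1.42.0, limma 3.58.1 with voom, libraries in place of lines, the shared name as unit, the lines compared alone, first libraries alone, and each line left out. Duplicate numbers paired libraries across groups: deviations of control and db/db lines correlated in all 12 pairs (r 0.166 to 0.56 over 9147 genes).

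Named histone genes are the 10 of highest mean, the highest of each class on each chromosome, and those called in a comparison with all libraries; others are said to be chosen after their values were seen, or were named for a call without 1 library. The members and the 9 gene lists (161 entries) were chosen with earlier results of these data known. The edgeR steps were tested on simulated data with known changes.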

Additional observations from a re-analysis of the deposited data

Results flagged for a closer look

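In 11 of 50 groups of samples examined, 1 sample stood far from the others by Dixon's ratio of gap to range. The cut is one that chance passes in about 1 of 20 independent groups. Some genes examined had been named for a call in these data, and the groups share lines and libraries. The count therefore cannot be set against that rate. In 8 of the 11, adb_db7 or its second library was the highest of the db/db samples. The summed level of the 62 less abundant histone genes was 113.4 CPM in that library and 9.56 to 19.7 CPM in the other db/db libraries. Among db/db lines, adb_db7 had 1.81 CPM of Hist1h3e (others 0.0991 to 0.263 CPM), 1.66 CPM of Hist1h4a (0.0927 to 0.212 CPM), 1.45 CPM of Hist1h1e (0.142 to 0.232 CPM) and 1.4 CPM of Hist1h4m (0.0309 to 0.156 CPM). It also had 1.23 CPM of Hist1h2ap (0.328 to 0.481 CPM), 0.676 CPM of Hist2h4 (0.0469 to 0.113 CPM) and 0.457 CPM of Hist4h4 (0.17 to 0.216 CPM).

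The other 3 were in control lines. Line bB6_A5 had 1.17 CPM of Hist1h2af (others 0.769 to 0.805 CPM) and 0.356 CPM of Hist3h2ba (0.199 to 0.216 CPM), and line aB6_A5 had 0.223 CPM of Hist1h4a (0.115 to 0.128 CPM).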

How the results depend on the processing

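Counts of histone genes called moved with the unit, the filter and 1 library. The number of genes tested and the share of all genes called also changed between settings. Where they are not given beside a count, the count alone is not a result about the histone genes. For db/db against control lines (2 called) the count was 1 with at least 1 CPM in 2 samples, 1 with limma-voom, 1 with the lines of these groups alone, 6 with DESeq2, 7 with each library as a sample, and 0 by edgeR with the shared name as unit, with or without the second library of adb_db7 (19 and 7 at an unadjusted p under 0.05). With the duplicate number as a replicate block, libraries gave 3 of 24 histone genes and 6188 of all genes, against 7 and 7247 without the block; no other comparison was fitted with this pairing. For corrected against db/db lines (2) it was 4 with libraries, 7 without the second library of adb_db7, 4 when this was joined with the shared name, and 8 with first libraries alone. For corrected against control lines (6) it was 10 with libraries, 10 without that library, 2 with the shared name and 17 with the lines compared alone. For db7 against db5 (9) it was 41 without a filter and 3 with at least 1 CPM. For B1 against A5 (3) it was 5 with library size alone, 12 without a filter, 7 without that library and 5 with first libraries alone. For second against first duplicates (1) it was 13 without a filter, and 0 with at least 1 CPM, with DESeq2, without the line block, and in control or db/db lines alone. Leaving out each line in turn gave 1 to 4, 1 to 6, 1 to 9, 5 to 55, 1 to 9 and 0 to 2 in the same order; 55 came without bdb_db7. Without adb_db7, Hist1h3e (-0.05) and Hist1h4a (-0.14) reversed for db7 against db5; over lines left out they ran up to 3.33 and 3.4. The cause of the other changes was not tested. Of the log2 values of called genes, 355 kept their side of the threshold, 93 lost it and 2 reversed. Under library size alone, corrected lines had 12.9 CPM of Hist1h2bc, 5.03 of Hist1h4i, 3.28 of Hist3h2a and 1.95 of Hist2h2be, past their spread over lines.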
